A study of Rattus norvegicus with 9 samples.

Results

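This report describes which transcripts of rat hippocampus were higher or lower after 1 h of ketone bodies. The comparison used 6 of the 9 arrays of the study: the 3 labelled as 1 h of ketone bodies and the 3 labelled as control. The 3 arrays of a 6 h exposure were not contrasted and entered only the estimate of the spread. The control samples were in artificial cerebrospinal fluid alone, with no exposure time in the labels. The 1 h samples were exposed to ketone bodies, and the labels do not say which ones, at what dose or in what fluid. The source is given as brain, hippocampus, the RNA is described as coming from hippocampal neurons, and strain, age and sex are not given. The labels also do not say whether the 3 replicates of a group were separate animals, slices or cultures, so every p-value here measures only the spread between these arrays.

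Ketone bodies are small fuels that the liver makes from fatty acids during fasting or on a very low carbohydrate diet. They enter brain cells through monocarboxylate transporters and are turned into acetyl-CoA in mitochondria, in steps that include the enzymes encoded by Bdh1 and Oxct1. In the hippocampus they have been studied for their effects on energy supply, on neuronal firing and on seizures.

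The labelled tissue was checked against marker genes. Several transcripts of excitatory neurons were well above the level of log2 5.21 under which probe sets were not tested (a signal of about 21). They include the granule cell factor Prox1 (control mean 8.29 on the log2(signal + 16) scale), the vesicular glutamate transporter Slc17a7 (11.26) and Neurod6 (10.39). Another such marker, Tbr1, was dimmer (6.56, and 5.22 at 1 h), and 1 of the 16 on the array was not tested. The arrays also carried transcripts of astrocytes (Aqp4, 11.78), myelin (Mobp, 11.96), choroid plexus (Ttr, 12.17) and red blood cells (Hbb, 11.68), so transcripts of cells other than neurons were present in this RNA. In such mixed RNA, fewer cells of a type and less RNA per cell cannot be told apart. Correlations over the tested probe sets were 0.962 to 0.987 between arrays within a group and 0.947 to 0.988 between control and 1 h arrays. The first principal component of the 6 arrays held 47.7% of the variance, with the third control array (-30.3) and the third 1 h array (39.4) at its ends.

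Few single transcripts passed the test. Of 18625 probe sets, 6 (0.0322%) passed limma's moderated test at a Benjamini-Hochberg adjusted p of 0.05, of which 4 (0.0215%) rose and 2 (0.0107%) fell. The 3 that carry a single gene name are the chemokines Ccl2 and Cxcl10 and the nuclear protein gene Csrnp1, and all 3 rose. At an unadjusted p under 0.05, 1245 probe sets (6.68%) were higher and 869 (4.67%) lower, where 931 in all would arise by chance, and 55.3% of all changes were positive. This split depended on the scaling: it was 1095 and 1105 with the values as deposited, and 2113 and 499 with arrays centred on their medians. With 1 probe set per gene, 946 of 10707 genes (8.84%) were higher and 359 (3.35%) lower at that threshold, 63.5% of all log2 changes were positive, and the median change was 0.066. These shares are the background for each gene list below. A count from a fit without 1 array has the background of that fit. The share of genes higher was 8.14%, 7.1% and 5% without control 1, 2 and 3, and the share lower 3.02%, 3.22% and 1.72%. Without 1 h array 1, 2 and 3 the shares were 6.87%, 6.6% and 5.58% higher and 2.54%, 3.89% and 2.39% lower. Large changes leaned the other way: log2 changes of at least 1 were measured for 6 probe sets upward and for 111 downward. The groups' values were without overlap in all 6 of the first and in 40 of the second. Over all tested probe sets, such a lack of overlap held for 13% upward and 8.26% downward.

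**Figure D1:**
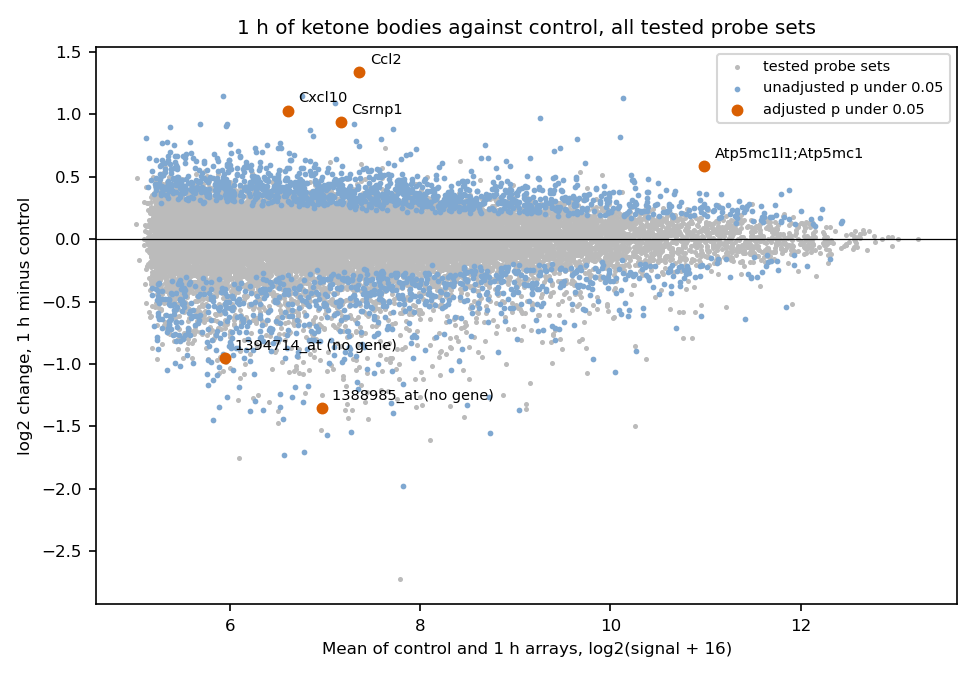
Log2 change of each of the 18625 tested probe sets (1 h mean minus control mean, 3 arrays each, vertical axis) against the mean of both groups as log2(signal + 16) (horizontal axis). The 6 probe sets with an adjusted p under 0.05 are in orange, and those with an unadjusted p under 0.05 in blue. Ccl2 stands highest at 1.34, while of the changes below -1 only that of 1388985_at is orange.

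Chemokines, the secreted proteins that draw leukocytes, made up 2 of the 3 named genes that rose. Ccl2, which attracts monocytes, had deposited signals of 96.5, 98.5 and 79 on the control arrays and 225, 275 and 235 on the 1 h arrays. Each 1 h value was more than double every control value. The log2 change was 1.34 ± 0.13 (SE, 3 arrays per group here and throughout; 95% interval 1.05 to 1.62; limma adjusted p = 0.0155), a fold of 2.53. Cxcl10, an interferon-inducible ligand of the receptor Cxcr3 on T cells, went from signals of 56.8, 59 and 51.3 to 121, 128 and 115. It rose by 1.03 ± 0.12 (limma adjusted p = 0.0205), with no overlap between the groups.

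A pair of related chemokines lay just outside the threshold. Cxcl1, a neutrophil attractant, had signals of 77.8, 88.2 and 79.4 in control and 154, 188 and 212 at 1 h. Its log2 change was 1.09 ± 0.15 (limma adjusted p = 0.051). Cxcl11, another ligand of Cxcr3, had 30.3, 29.5 and 34.9 in control and 79.4, 62.5 and 63.2 at 1 h. Its log2 change was 0.92 ± 0.13 (limma adjusted p = 0.051). In a fit with 1 probe set per gene both passed (limma adjusted p = 0.019 for Cxcl1 and 0.0251 for Cxcl11), as did Got1 and Mt2A, described further on (limma adjusted p = 0.019 and 0.0251). In both chemokines all 1 h values lay above all control values, which held for 16.8% of genes (13% of probe sets).

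The chemokines did not move as a block. Of 14 measured, 2 rose (background 0.028% of genes), 8 had a positive change at an unadjusted p under 0.05 (57.1%, background 8.84%) and 1 a negative one (7.14%, background 3.35%). Their median log2 change was 0.263, beside 0.066 over all genes. These 14 are the members above the filter, of 29 on the array, and without the filter the median of all 29 was 0.044, beside 0.058 for all genes, with 8 higher and 2 lower at that threshold. Without control 3, 4 of 14 were higher (background 5%), and without 1 h array 3, 4 of the 15 then above the filter (background 5.58%). The monocyte attractant Ccl7, from the same family as Ccl2, had 0.46 ± 0.16, the B and T cell attractant Ccl19 0.37 ± 0.16 and Cxcl14 0.26 ± 0.09 (limma adjusted p = 0.381, 0.418 and 0.386). Ccl4, another attractant of leukocytes, went the other way at -0.46 ± 0.14 (limma adjusted p = 0.343). The close relatives Ccl3 (-0.05 ± 0.16) and Cxcl2 (0.04 ± 0.15) and the neuronal chemokine Cx3cl1 (-0.05 ± 0.17) had values near 0. Of 5 chemokine receptors measured, 0 passed and 0 had an unadjusted p under 0.05, with a median of -0.03.

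The sequence upstream of the start is shown for the chemokines among these 4 that a promoter table from RefSeq (build GRCr8) holds, because their changes were among the largest positive ones and the letters of known regulatory motifs can be read in them. Each line gives the 250 bases before the annotated start, 5′ to 3′ on the gene's own strand. Capitals mark matches to 3 motifs searched on both strands: the NF-kB consensus, the AP-1 motif TGANTCA and the interferon-stimulated element. Cxcl10 lies at chr14:15988816-15989065 on the plus strand, Cxcl11 at chr14:15973478-15973727 on the plus strand and Cxcl1 at chr14:17479322-17479571 on the minus strand.

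Cxcl10: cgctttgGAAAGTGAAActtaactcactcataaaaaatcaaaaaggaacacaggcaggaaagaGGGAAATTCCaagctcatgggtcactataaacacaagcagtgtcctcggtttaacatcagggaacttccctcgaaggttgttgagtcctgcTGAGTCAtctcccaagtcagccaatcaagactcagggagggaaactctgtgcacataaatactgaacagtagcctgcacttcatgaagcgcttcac

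Cxcl11: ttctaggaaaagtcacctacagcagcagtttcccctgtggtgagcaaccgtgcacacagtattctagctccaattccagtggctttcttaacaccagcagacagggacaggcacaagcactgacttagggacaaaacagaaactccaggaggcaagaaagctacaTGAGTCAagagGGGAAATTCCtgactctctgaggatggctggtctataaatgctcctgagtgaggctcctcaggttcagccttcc

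Cxcl1: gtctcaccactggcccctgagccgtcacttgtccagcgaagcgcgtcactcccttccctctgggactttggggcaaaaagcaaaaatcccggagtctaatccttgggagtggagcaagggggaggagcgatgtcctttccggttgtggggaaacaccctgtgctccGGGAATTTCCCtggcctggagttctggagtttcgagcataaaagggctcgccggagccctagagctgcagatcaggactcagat

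Cxcl10 held all 3 motifs, with the interferon-stimulated element 243 to 234 bases before the start, the NF-kB consensus at 187 to 178 and the AP-1 motif at 96 to 90. Cxcl11 held the AP-1 motif at 85 to 79 and the NF-kB consensus at 74 to 65. In Cxcl1 the NF-kB consensus matched on both strands in overlapping positions, at 84 to 75 and at 83 to 74, and no matches of different motifs overlapped in these sequences. Among the 11 measured chemokines in the table, the NF-kB consensus was found in 4 (Cxcl1, Cxcl10, Cxcl11 and Cxcl2), against 967 of 27457 promoters (3.52%). The AP-1 motif was also found in 4 (Ccl7, Cxcl10, Cxcl11 and Cxcl14), against 1747 promoters (6.36%), and the interferon-stimulated element in 2 (Ccl19 and Cxcl10), against 902 (3.29%). The CArG box and the cyclic AMP element TGACGTCA matched 0 of the 11, against 412 (1.5%) and 466 (1.7%) of all promoters. A match is a run of letters and not evidence of binding, and Cxcl2, with the NF-kB letters, had a change of only 0.04 ± 0.15.

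Other genes of inflammation had smaller changes, and 0 passed. Of 21 cytokine and NF-kB response genes, 7 had a positive and 1 a negative change at an unadjusted p under 0.05 (33.3% and 4.76%), with a median of 0.15. Icam1, the adhesion molecule that binds leukocytes, had log2 values of 6.47, 6.32 and 6.2 in control and 6.93, 6.73 and 7.23 at 1 h (change 0.64 ± 0.15, limma adjusted p = 0.299). Nfkbia, the inhibitor that NF-kB itself induces, had 7.99, 7.95 and 7.77 against 8.39, 8.84 and 8.24 (0.58 ± 0.15, limma adjusted p = 0.318). The cytokine gene Tnf had 7.74, 7.59 and 7.67 against 7.08, 7.1 and 7.41, a negative change of -0.47 ± 0.13 (limma adjusted p = 0.326). None of these 3 genes had overlapping groups, and Tnf lay on the opposite side from the others. Of 18 interferon response genes, 15 changes were positive, 3 of them at an unadjusted p under 0.05 (16.7%), with a median of 0.213. Without 1 h array 3 the interferon median was 0.106 and the cytokine median 0.087, beside 0.052 for all genes.

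Markers of microglia and macrophages, cells that make many of these chemokines, had mixed values. Of 17 measured, 12 had a positive change (70.6%, beside 63.5% of all genes), 5 had a positive and 1 a negative change at an unadjusted p under 0.05 (29.4% and 5.88%, median 0.269), and 0 passed. Their summed signal was 4320 to 4480 in control and 4540 to 4740 at 1 h, and 0 of the 17 was at 0 on any array. Aif1, a calcium-binding protein of these cells, had 0.75 ± 0.17, and Tmem119, a marker of resident microglia, 0.43 ± 0.11, while the purinergic receptor P2ry12 had -0.33 ± 0.13 (limma adjusted p = 0.299, 0.317 and 0.397) and the receptor Cx3cr1 -0.39 ± 0.21. Without 1 h array 1, 2 of the 17 were higher at that threshold, and without control 3, 3. Haemoglobin beta, Hbb, had 11.71, 11.84 and 11.48 in control and 11.94, 12.28 and 11.98 at 1 h (0.39 ± 0.12, limma adjusted p = 0.335). The part of these cell types in the chemokine result was not tested.

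**Figure D2:**
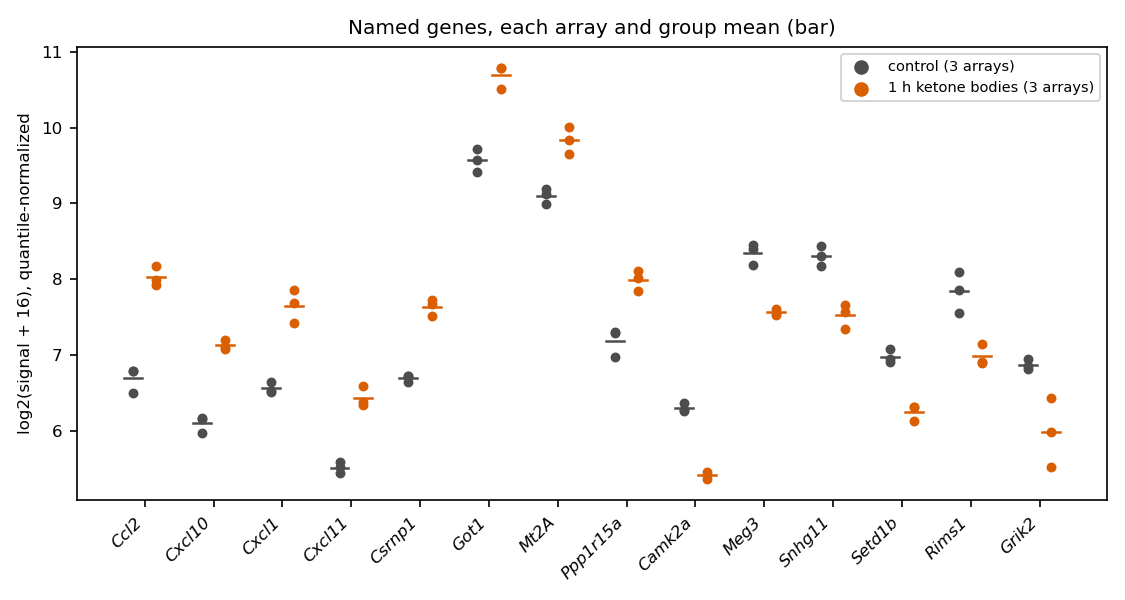
Quantile-normalized log2(signal + 16) (vertical axis) of 14 genes on each of the 3 control arrays (grey) and 3 arrays of 1 h of ketone bodies (orange), with the group mean as a bar. In each gene shown, every value of one group lies outside the range of the other, which was part of a rule that named most of them. Such separation held for 16.8% of genes upward and 5.95% downward. Ccl2, Cxcl10 and Csrnp1 passed the test and the others did not.

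Among immediate early genes, which cells switch on within minutes of a signal, 1 rose. Csrnp1, a nuclear protein induced by signalling through axin, had signals of 91.7, 94 and 88.1 in control and 188, 165 and 190 at 1 h. It rose by 0.94 ± 0.10 (limma adjusted p = 0.0205), a fold of 1.92. It was the only one of 50 immediate early and activity-regulated genes that passed. Of the list, 12 (24%) had a positive and 2 (4%) a negative change at an unadjusted p under 0.05, with a median of 0.069, close to the 0.066 of all genes.

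The growth arrest gene Gadd45g had signals of 160, 153 and 141 in control and 243, 242 and 212 at 1 h (0.61 ± 0.10, limma adjusted p = 0.133). The transcription factor Klf4 had 196, 165 and 179 against 284, 281 and 343 (0.72 ± 0.15, limma adjusted p = 0.256). Neither gene's groups overlapped. The classical markers of neuronal firing gave other values: Fos had 2260, 2020 and 2550 in control and 2240, 2480 and 1880 at 1 h (-0.16 ± 0.12, limma adjusted p = 0.607), and its groups overlapped throughout. Arc, which acts at active synapses, had 0.24 ± 0.13 (limma adjusted p = 0.491), and the neurotrophin gene Bdnf -0.16 ± 0.25 in one probe set and 0.49 ± 0.25 in the other.

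Genes of the integrated stress response, which slows translation and raises repair genes, had 3 of 19 with a positive change at an unadjusted p under 0.05 (15.8%, median 0.074). Ppp1r15a, which ends the translation block, had 144, 146 and 114 in control and 215, 260 and 239 at 1 h (0.80 ± 0.15, limma adjusted p = 0.236). The transcription factors Atf4 (0.39 ± 0.08, limma adjusted p = 0.256) and Atf3 (0.50 ± 0.13, limma adjusted p = 0.317) made up the rest. Mt2A, a metallothionein that binds zinc, had 495, 541 and 563 against 793, 1030 and 915, with no overlap (0.73 ± 0.10, limma adjusted p = 0.051).

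Positive changes outside these lists belonged to genes of other functions. Hist3h2ba, a histone H2B gene, had signals of 328, 325 and 310 in control and 529, 553 and 471 at 1 h (0.65 ± 0.10, limma adjusted p = 0.0861). Kcmf1, a ubiquitin ligase, had 455, 528 and 566 against 819, 861 and 905 (0.71 ± 0.11, limma adjusted p = 0.0916). Arl6ip5, a membrane protein that restrains the neuronal glutamate transporter, had 791, 790 and 816 against 1550, 1260 and 1650 (0.82 ± 0.14, limma adjusted p = 0.159), and 0.97 in its other probe set. In all 3 genes the 1 h values lay above every control value, which the rule that named them required. This held for 16.8% of genes (13% of probe sets). Eml2, a microtubule-binding protein, had one of the largest changes, but its first control array stood apart, at 97.3 against 47.4 and 44.8, below 157, 115 and 158 at 1 h (1.15 ± 0.24, limma adjusted p = 0.256).

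Genes of energy metabolism gave 1 large single change and many small ones. Got1, the cytosolic aspartate aminotransferase of the malate-aspartate shuttle, had signals of 739, 650 and 810 in control and 1760, 1480 and 1820 at 1 h. Every 1 h signal was well above every control signal, and the log2 change was 1.13 ± 0.16 (limma adjusted p = 0.051). The other call that rose was a probe set listed with both Atp5mc1l1 and Atp5mc1, which share the name of the c subunit of mitochondrial ATP synthase and which this probe set does not separate. It had 1620, 1570 and 1580 in control and 2510, 2480 and 2740 at 1 h, a rise of 0.59 ± 0.07 (limma adjusted p = 0.0293), or 1.5-fold.

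Subunits of complex I, the entry point of electrons into the respiratory chain, had 35 of 36 positive changes, with a median of 0.218 against 0.066 for all genes. Of these, 20 had an unadjusted p under 0.05 (55.6%, background 8.84%), 0 were lower at that threshold and 0 passed. The list medians of the single arrays, each gene taken from its control mean, were 0.038, 0.049 and -0.078 in control and 0.197, 0.194 and 0.237 at 1 h, so the groups did not overlap. Ndufa2 had 1050, 915 and 982 in control and 1330, 1550 and 1400 at 1 h (0.47 ± 0.09, limma adjusted p = 0.242), and Ndufb8 had 0.64 ± 0.16 (limma adjusted p = 0.3). Of 40 subunits of complexes II to V, 36 changes were positive (median 0.148), 15 of them at an unadjusted p under 0.05 (37.5%), and 0 passed. These counts depended on the variance model and on single arrays. Without the intensity trend they were 12 for complex I and 7 for complexes II to V (background 8.53%). Without control 3 they were 10 and 8 (background 5%). Complex I had 10 without 1 h array 3 (background 5.58%), and complexes II to V had 9 without 1 h array 2 (background 6.6%). Cox6a2, a cytochrome oxidase subunit, had the smallest p among them (0.63 ± 0.13, limma adjusted p = 0.256).

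Transcripts of ribosomal proteins also had mostly positive changes. Of 73 mitochondrial ribosomal proteins, 69 changes were positive (median 0.216), 27 of them at an unadjusted p under 0.05 (37%). Of 42 cytosolic ribosomal proteins, 41 were positive (median 0.162), with 20 at that threshold (47.6%). Of 35 proteasome subunits, 32 were positive (median 0.138), with 7 at that threshold (20%). In these 3 lists 0 members passed. Without the intensity trend the counts at that threshold were 24, 6 and 2, so that of the proteasome (2 of 35) fell below the background of 8.53%. Without control 3 they were 17, 11 and 1 (background 5%). The cytosolic list had 9 without 1 h array 2, and the proteasome 4 without control 1, 4 without 1 h array 2 and 1 without 1 h array 3. Mrpl48 had the smallest p among the mitochondrial ones, at 513, 493 and 481 in control and 703, 636 and 798 at 1 h (0.48 ± 0.11, limma adjusted p = 0.299). Glycolysis, the route that breaks down glucose, stood nearer to all genes, with a median of 0.036 over 18 genes and 0 at an unadjusted p under 0.05 in either direction. The citric acid cycle had a median of 0.051 over 22 genes, with 4 higher at that threshold (18.2%), and 1 or 2 without control 1, control 3, 1 h array 1 or 1 h array 3.

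Of the genes that take up and burn ketone bodies, 0 passed. Oxct1, the enzyme that activates acetoacetate, had signals of 1540, 1500 and 1620 in control and 1500, 1700 and 1470 at 1 h (-0.07 ± 0.08, limma adjusted p = 0.726). Bdh1, the hydroxybutyrate dehydrogenase, had 217, 251 and 218 against 254, 198 and 251 (0.05 ± 0.16, limma adjusted p = 0.908). The groups of both overlapped. The transporter Slc16a1 had 0.04 ± 0.10 (limma adjusted p = 0.882), and Slc16a7, the main neuronal one, -0.67 ± 0.28 with signals of 157, 214 and 208 against 123, 147 and 70.6 (limma adjusted p = 0.416). Its groups came close without overlapping. Emb, a partner protein of these transporters, had 0.34 ± 0.11 (limma adjusted p = 0.352). Over the list of 10 such genes 7 changes were positive, the median was 0.048, and 1 gene in each direction had an unadjusted p under 0.05.

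Genes of fatty acid oxidation, together with targets of the nuclear receptor PPAR alpha, had 25 of 29 positive changes, a median of 0.117 and 9 at an unadjusted p under 0.05 (31%), with 0 passing. That count was 4 or 5 without control 2, control 3 or any of the 1 h arrays, where the background ran from 5% to 7.1%. Pdk4, which restrains the use of pyruvate, had 40.4, 47.4 and 33.2 in control and 48.9, 62.6 and 56.2 at 1 h (0.46 ± 0.14, limma adjusted p = 0.352). Its lowest 1 h value lay only just above its highest control value. Cpt2, which brings fatty acids into mitochondrial oxidation, had 0.47 ± 0.14 (limma adjusted p = 0.335).

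**Figure D3:**
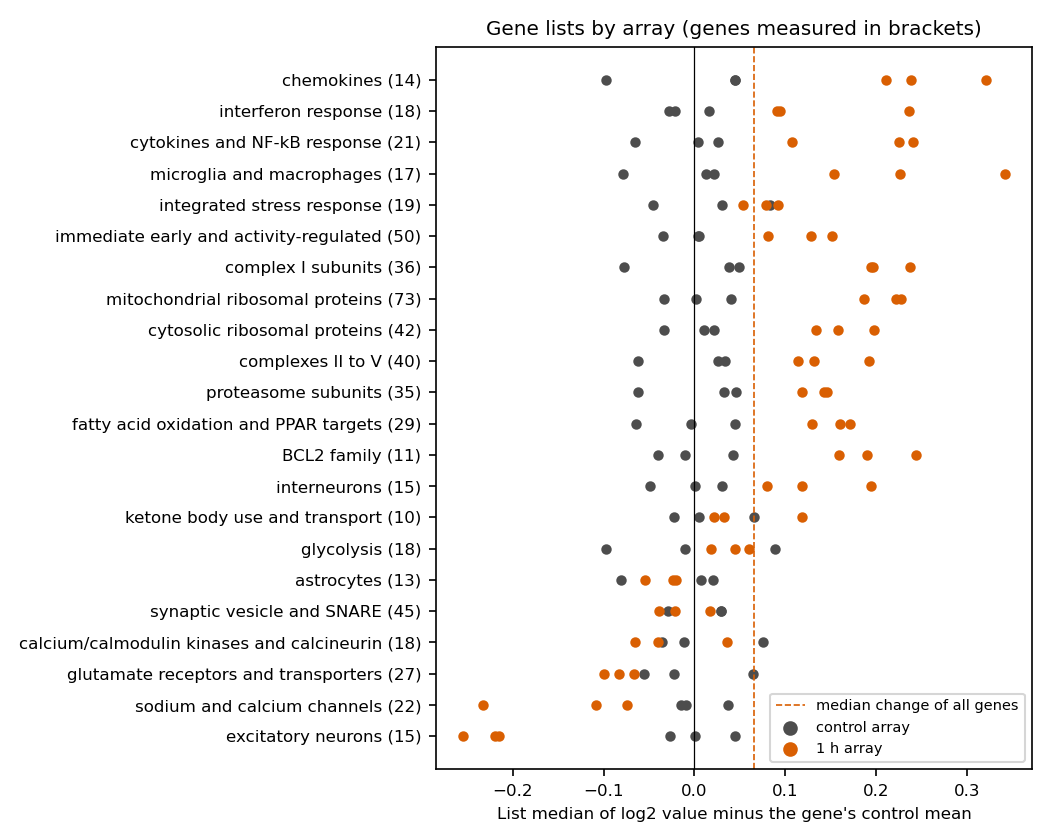
Median of each gene list on each array, as the log2 value minus the gene's control mean (horizontal axis), for 22 lists with the number of genes measured in brackets. Control arrays are grey, 1 h arrays orange, and the dashed line marks the median change of all genes (0.066); the complex I medians at 1 h are 0.197, 0.194 and 0.237, while those of excitatory neuron markers are -0.22, -0.255 and -0.215.

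The transcripts that fell carry no gene name. Probe set 1388985_at had signals of 174, 202 and 184 in control and 61.3, 68.9 and 51.3 at 1 h and fell by 1.35 ± 0.14 on the log2 scale (limma adjusted p = 0.0155). Probe set 1394714_at had 72, 75 and 72.3 in control and 30.5, 23.7 and 27.7 at 1 h and fell by 0.96 ± 0.12 (limma adjusted p = 0.0293). In both, all 1 h values lay far below all control values. A lack of overlap in that direction, by any margin, held for 5.95% of genes (8.26% of probe sets).

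Among negative changes with a gene name, Camk2a had the smallest p, and the synaptic genes Dlg4 and Rims1 were among the 12 smallest without overlap. Camk2a, the calcium/calmodulin kinase of excitatory synapses, had signals of 68.6, 63.7 and 65.8 in control and 25.9, 23.5 and 27.3 at 1 h in the probe set with the smallest p, without overlap (-0.89 ± 0.13, limma adjusted p = 0.051). Its other 3 probe sets gave -0.59, -0.44 and -0.37. Dlg4, the postsynaptic scaffold PSD-95, had 323, 326 and 270 against 151, 196 and 141 (-0.83 ± 0.16, limma adjusted p = 0.236). Its other probe sets disagreed in sign, at -1.44 and 0.13. Rims1, which organises vesicle release at the presynaptic membrane, had 175, 218 and 259 against 124, 101 and 100 (-0.86 ± 0.18, limma adjusted p = 0.256).

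Of the synaptic and channel lists, 0 members passed, and most medians lay below that of all genes. Among 22 sodium and calcium channel genes the median was -0.151, with 4 lower (18.2%, background 3.35%) and 0 higher at an unadjusted p under 0.05. The lower count was 2 without control 2 or control 3, and 1 without 1 h array 1. The sodium channel Scn3a had 106, 145 and 178 in control and 61.1, 77.7 and 69.6 at 1 h (-0.81 ± 0.21, limma adjusted p = 0.311). Among 27 glutamate receptors and transporters the median was -0.077 (0.063 with arrays centred on their medians, where that of all genes was 0.145), with 4 lower (14.8%) and 0 higher. The lower count was 1 without control 2 and 2 without 1 h array 3. The kainate receptor Grik2 had 102, 112 and 101 against 46.6, 68 and 28.9, a spread at 1 h wider than in control (-0.90 ± 0.27, limma adjusted p = 0.351). Among 29 postsynaptic scaffold genes the median was -0.03 with 3 lower (10.3%), and among 44 potassium channel genes it was 0.026 with 4 lower (9.09%; 2 without control 2) and 1 higher (2.27%). The sign of the potassium channel median was positive in 14 of 23 settings. The inward rectifier Kcnj4 was that higher one, at 0.50 ± 0.11 (limma adjusted p = 0.259). The channel subunits closed by ATP, often discussed with ketone bodies, gave a median of 0.045 over 4 genes (-0.069 with the beta-actin ratio as a covariate), with 0 at an unadjusted p under 0.05.

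Of 5 long noncoding RNAs measured, 1 was higher and 1 lower at an unadjusted p under 0.05, and 0 passed. Meg3, an imprinted noncoding RNA, had 337, 324 and 277 in control and 167, 169 and 176 at 1 h (-0.79 ± 0.12, limma adjusted p = 0.0839), and -0.365 ± 0.138 in its brighter probe set. Snhg11, a host of small nucleolar RNAs, had 332, 276 and 300 against 172, 184 and 142 (-0.79 ± 0.12, limma adjusted p = 0.0861), with -0.95, -0.81 and -0.26 in its other probe sets. Gas5, another such host, had a positive value of 0.42 ± 0.12 (limma adjusted p = 0.335), and -0.31 in its other probe set. Of 34 histone methyltransferases and demethylases, 6 were lower (17.6%, background 3.35%) and 0 higher at an unadjusted p under 0.05, with a median of -0.031 (0.057 with arrays centred on their medians), and 16 changes were positive. Without control 3, 3 were lower. Setd1b, which methylates histone H3, had 121, 112 and 109 against 63.6, 60.8 and 50.7 (-0.73 ± 0.14, limma adjusted p = 0.215). Of 16 histone deacetylases, sirtuins included, 2 were higher (12.5%, close to the background of 8.84%) and 0 lower, with a median of 0.105. The higher count was 1 without control 1, control 2 or any of the 1 h arrays. The sirtuins Sirt6 and Sirt7 were those 2, at 0.43 ± 0.14 and 0.34 ± 0.14 (limma adjusted p = 0.356 and 0.418).

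Other genes among these 12 have varied roles. They include Dock4, an activator of the GTPase Rac (-0.61 ± 0.12, limma adjusted p = 0.25), Cnot6, which shortens the tails of messenger RNAs (-0.54 ± 0.11, limma adjusted p = 0.259), and Camk2b, the partner subunit of Camk2a (-0.31 ± 0.06, limma adjusted p = 0.256, and -0.90 in its other probe set).

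Some of the largest negative sizes rested on widely spread arrays. Lingo1, a neuronal membrane protein, had 142, 196 and 148 in control and 64.6, 40.1 and 14.9 at 1 h (-1.73 ± 0.73, limma adjusted p = 0.42), and its other probe sets gave -0.22 and 0.69. Gja1, the astrocyte connexin, had 107, 190 and 303 against 77.4, 23.3 and 40.2 in one probe set (-1.71 ± 0.69, limma adjusted p = 0.411). Its bright probe set had 3960, 3750 and 4210 against 3630, 3880 and 3850 (-0.21 ± 0.07, and 0.04 with arrays centred on their medians). For both genes the size differed between probe sets, and the 1 h arrays differed among themselves.

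Lists of neuron markers gave different values, and no difference between neuron types was tested. Of 15 excitatory neuron markers, 14 changes were negative, with a median of -0.201 against 0.066 for all genes. At an unadjusted p under 0.05, 5 (33.3%, background 3.35%) were lower and 0 higher (2 lower without control 3, background 1.72%). The list medians were 0.001, -0.027 and 0.045 on the control arrays and -0.22, -0.255 and -0.215 on the 1 h arrays. The summed signal was 17100 to 17300 in control and 14000 to 16100 at 1 h, with 0 markers at 0. Prox1 had log2 values of 8.24, 8.26 and 8.37 in control and 7.93, 8.04 and 7.73 at 1 h (-0.39 ± 0.11, limma adjusted p = 0.335), and Bcl11b had -0.67 ± 0.22 (limma adjusted p = 0.365). Slc17a7 had -0.14 ± 0.17 and Mef2c -0.02 ± 0.09. Of 15 markers common to all neurons, 12 changes were negative (median -0.123), 3 were lower (20%) and 0 higher at that threshold. Their summed signal was 34200 to 35500 in control and 31000 to 33000 at 1 h, without overlap.

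Of 15 interneuron markers, 12 changes were positive, with a median of 0.15 and a summed signal of 12000 to 12500 in control and 13000 to 13600 at 1 h. At an unadjusted p under 0.05, 3 were higher (20%) and 2 lower (13.3%, background 3.35%). Parvalbumin, Pvalb, of fast-spiking cells had signals of 525, 412 and 383 in control and 715, 773 and 624 at 1 h (0.65 ± 0.13, limma adjusted p = 0.242). Somatostatin, Sst, had 1120, 1090 and 1190 against 1440, 1650 and 1590 (0.38 ± 0.08, limma adjusted p = 0.25). Both lower ones went against these. Reln, a secreted guidance protein, had log2 values of 9.27, 9.47 and 9.59 in control and 8.93, 9.05 and 9.16 at 1 h (-0.395 ± 0.114, limma adjusted p = 0.335). Gad2, which makes the transmitter GABA, had 78.4, 133 and 120 against 42.1, 45 and 16.2 (-1.30 ± 0.51, limma adjusted p = 0.399). In these 3 lists 0 markers passed. Astrocyte markers had a median of 0.016 over 13 genes and oligodendrocyte markers of -0.005 over 14. Choroid plexus and ependyma markers had a median of -0.01 over 10, with 2 higher and 2 lower at that threshold and 0 passing. Their summed signal was 6440 to 6800 in control and 5450 to 6050 at 1 h, without overlap. Such a sum weighs bright members most, unlike the median. On the negative side, the bright carrier protein gene Ttr had -0.21 ± 0.06 (0.03 with arrays centred on their medians) and Sostdc1 -0.45 ± 0.11. Of the 10 choroid plexus and ependyma markers, 5 changes were negative and 5 positive, the highest at 0.39.

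Measures of RNA quality differed between the arrays. The log2 ratio of 3' to 5' signal of the beta-actin control probe sets, which grows as RNA is degraded or labelled copies get shorter, was 1.37, 1.27 and 1.42 in control and 1.39, 2.16 and 2.02 at 1 h (1.35 ± 0.08 and 1.85 ± 0.41, SD, n = 3; exact 2-sided permutation p = 0.2). For Gapdh the ratios were 0.13 ± 0.11 and 0.11 ± 0.04 (SD, n = 3; exact p = 0.8). For hexokinase, read after seeing the data, they were 1.58, 1.29 and 0.87 in control and 1.66, 1.69 and 2.42 at 1 h, without overlap (exact p = 0.1, the smallest that 3 against 3 arrays can give). On 1 h array 1 the beta-actin ratio lay within the control range and the hexokinase ratio above it. With the beta-actin ratio as a covariate, limma called 0 probe sets, with 814 higher and 588 lower at an unadjusted p under 0.05. Ccl2 then had a log2 change of 1.37, Cxcl10 1.04 and Csrnp1 0.95, each with a limma adjusted p of 0.0833. With the hexokinase ratio as the covariate instead, an alternative chosen after seeing the data, limma called 9 probe sets, among them all 6 of the reported fit (Ccl2 1.38, limma adjusted p = 0.0158). The median of complex I subunits was 0.209 with the beta-actin ratio and 0.206 with the hexokinase ratio as the covariate, with 13 and 15 of 36 higher at an unadjusted p under 0.05. That of excitatory neuron markers was -0.242 and -0.255, with 4 and 6 of 15 lower.

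**Figure D4:**
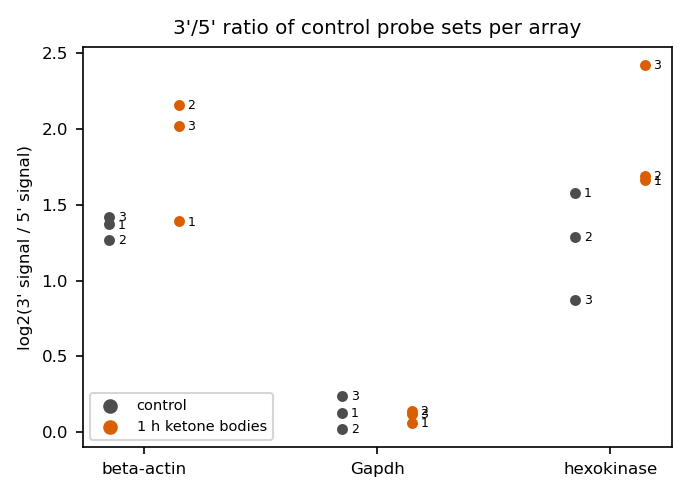
Log2 ratio of the 3' over the 5' deposited signal (vertical axis) of the control probe sets of beta-actin, Gapdh and hexokinase on each control array (grey) and 1 h array (orange), with the replicate number beside each point. The points numbered 2 and 3 of the 1 h group lie above all controls for beta-actin, and all 1 h arrays do for hexokinase.

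The array often carries more than 1 probe set for a gene, and these did not give the same values. The 2834 genes with more than 1 tested had 3743 further probe sets beside the one with the highest signal. Of these further ones, 62.6% had a lower log2 change than the gene's highest-signal probe set, by a median of -0.082. They were higher in 2.81% and lower in 7.43% of cases at an unadjusted p under 0.05, against 4.83% and 6.39% for the highest-signal probe sets of the same genes. Probe sets with no gene listed also had more lower (5.96%) than higher ones (3.81%), the reverse of probe sets listed with 1 gene (4.41% and 7.27%). The lower calls and many of the named negative changes, such as those of Camk2a, Meg3, Snhg11, Lingo1 and Gja1, come from these 2 kinds of probe set. What sets these kinds apart was not tested. The gene lists were set against the shares of all genes, 3.35% lower and 8.84% higher. Some list members, such as Camk2a, Bcl11b and Homer1, have more than 1 probe set. For the highest-signal probe sets of such genes the shares were 6.39% lower and 4.83% higher.

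**Figure D5:**
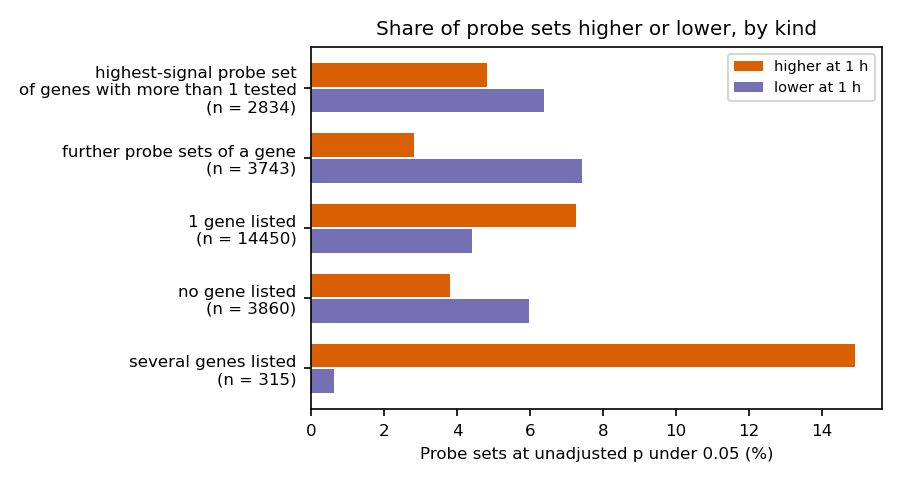
Percentage of probe sets with an unadjusted p under 0.05 (horizontal axis) that were higher (orange) or lower (purple) at 1 h, for 5 kinds of probe set with their number. Further probe sets of a gene and those with no gene listed are the kinds with more lower than higher ones, together with the highest-signal probe sets of genes that have more than 1.

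The calls depended on single arrays. Limma called 0 probe sets when any one of control 1, control 2, control 3, 1 h array 1 or 1 h array 3 was left out, beside 746 to 1153 higher and 438 to 792 lower ones at an unadjusted p under 0.05, and 3 without 1 h array 2. The size of the Ccl2 change stayed between 1.25 and 1.39 in these fits, while its adjusted p ran from 0.0485 to 0.131. Leaving out a 6 h array gave 10, 6 and 2 calls, without the first, the second and the third. In a fit of the 6 compared arrays alone, 5 probe sets passed: Ccl2, the Atp5mc1l1 and Atp5mc1 probe set, 1388985_at, Got1 and a Dlg4 probe set, while Cxcl10 and Csrnp1 each had an adjusted p of 0.0545.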

How the data were processed

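Expression was measured on 9 Affymetrix-type rat arrays, 3 each for control, 1 h and 6 h of ketone bodies; groups come from the labels. The deposited table gives 1 intensity per probe set and array, linear as read from the values; how the authors computed it is not given in the sources used here. No counts lie behind it, so the number of arrays limits the precision.

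Values were taken as log2(signal + 16), and the arrays, whose medians spanned 0.206, were quantile-normalized. Of 31099 probe sets, 57 controls and those with a mean under the 40th percentile (log2 5.21) were left out, leaving 18625. All 9 arrays entered 1 fit with limma 3.58.1 in R 4.3.3 (6 residual degrees of freedom, intensity trend), with Benjamini-Hochberg adjustment over all tested probe sets. Fold changes on this scale understate changes of low signals. In lists a gene stands by its highest-signal probe set (10707 genes).

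Genes were named from the platform's annotation, which lists 1 gene for 20826 of 31042 probe sets, several for 436 and none for 9780 (14450, 315 and 3860 among those tested). A rat gene table held the Entrez number of 20758 probe sets and lacked 68, and no symbol differed (0). The naming rule took every call, in each direction the 12 genes with the smallest p and no overlap and the 8 largest changes at unadjusted p under 0.05, up to 4 genes of smallest p per list, and 11 fixed genes; the text gives a part of these. Ccl3, Cxcl2, Cx3cl1, Slc17a7 and Mef2c were named after their values were seen. The comparison and the 49 lists were chosen with earlier results of these data known. Hcar2 is not analysed here, Slc16a3 was under the filter, and 1 further item of the rule is not reported here.

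Replicate numbers were not treated as pairs in the reported fit. Deviations of same-numbered control and 1 h arrays from their group means correlated at 0.094, -0.096 and -0.347. Those of differently numbered arrays ran from -0.315 to 0.35. With 3 arrays per group these values cannot tell whether the samples were paired. Alternatives were the values as deposited, median centring, pseudocounts of 1 and 64, no filter or the 60th percentile, no trend, array weights, a replicate block, the compared arrays alone, 1 probe set per gene, 3'/5' covariates and leaving out arrays. The steps were tested on simulated data. Motifs were searched with Python 3.11.15 and figures drawn with matplotlib 3.10.9.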

Additional observations from a re-analysis of the deposited data

How the results depend on the processing

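The number of called probe sets, 6 in the reported fit (4 that rose, 2 that fell), moved with most choices. It was 3 without a filter (2 and 1), 25 with array weights (15 and 10), 10 with 1 probe set per gene (10 and 0), 9 with the hexokinase ratio as a covariate, 0 with the beta-actin 3'/5' ratio as a covariate, and 0 without both the third control and the third 1 h array, a pair chosen after seeing the data. Those that fell numbered 4 with the values as deposited or without an intensity trend, and 1 with the 60th percentile filter. Leaving out 1 of the 9 arrays gave from 0 to 10 calls, with 0 to 7 that rose. The lower ones ran from 0 to 3. With the replicate block 2 passed, Ccl2 and 1388985_at (1 and 1, both at a limma adjusted p of 0.0456). Whether the replicate numbers pair the samples cannot be told. The log2 change of Ccl2 stayed between 1.03 (pseudocount 64) and 1.48 (pseudocount 1), with adjusted p from 0.00166 (array weights) to 0.647 (the pair of arrays left out).

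The sign of genes with changes near 0 was not settled. With arrays centred on their medians, Gja1 (bright probe set) was 0.04, Mobp 0.13, Ttr 0.03, Oxct1 0.11 and Fos 0.05; with the values as deposited Mobp was 0.03 and Oxct1 0. Slc16a1 was -0.01 with the beta-actin covariate. Bdnf was 0.05 with the hexokinase covariate, chosen after seeing the data. Without the pair of arrays Bdh1 was -0.03 and Fos 0.03. With 1 array left out, Slc16a1 ran from -0.02 (control 2) to 0.07 (control 1), Bdnf from -0.34 (1 h array 2) to 0.03 (1 h array 1) and Bdh1 from -0.01 (1 h array 1) to 0.16 (1 h array 2). The cause was not tested in any of these.

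The medians of chemokines, complex I, complexes II to V, both ribosomal lists, the proteasome and microglia were positive in 23 of 23 settings. Those of excitatory neuron markers and of sodium and calcium channels were negative in 23 of 23. The median of all genes was itself positive throughout, from 0.029 (hexokinase covariate) to 0.145 (median centring). Some settings, such as no intensity trend, 1 probe set per gene and the replicate block, left the list medians as in the reported fit. Median centring moved the median of all genes to 0.145 and that of complex I to 0.388. The chemokine median fell to 0.044 without the filter, where that of all genes was 0.058. The potassium channel median changed sign between settings, from -0.065 to 0.073. The 3'/5' difference of 0.50 was -0.02 with Gapdh, and ran from 0.35 to 0.73 with 1 array left out.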

Other observations

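Several small groups outside the comparisons above had values of their own. All 11 measured genes of the BCL2 family, which decide between survival and death of a cell, had a positive log2 change at 1 h, with a median of 0.172, and 3 (27.3%, beside 8.84% of all genes) had an unadjusted p under 0.05. They include Bbc3, which promotes cell death (0.42 ± 0.14), and Mcl1 (0.37 ± 0.16) and Bcl2l1 (0.32 ± 0.12), which oppose it, and 0 passed by limma over all probe sets. Antioxidant genes under NRF2 had 17 of 22 positive values (median 0.208), with 4 at that threshold (18.2%), and 2 without control 3. Among neurotrophins and their receptors, Igf1 had 0.60 ± 0.19 in one probe set and 0.12 ± 0.17 in the other, and its receptor Igf1r -0.68 ± 0.20 and -0.03 ± 0.15.

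With the 10707 genes split into 5 classes by signal, the median log2 change was 0.072, 0.087, 0.081, 0.066 and 0.036 from the dimmest to the brightest class, so the positive lean of the genes was measured at each level of signal.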
